A study of Mus musculus with 30 samples.

Results

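The genes described here bind zinc in the cell or move it across membranes: the metallothioneins *Mt1* and *Mt2*, the zinc exporter *Slc30a1* (ZnT1), the zinc importer *Slc39a14* (ZIP14) and *Mtf1*, which encodes a metal-sensing transcription factor. These 5 members were chosen by name as a gene group, by their role, from 28586 genes listed in the count tables (26179 in the RiboTag tables and 24601 in the total RNA table). Earlier results of these data were known when they were chosen, so counts of members called are a description. All 5 were present in both kinds of table. All 5 also passed the filter on low counts in every comparison, apart from *Mtf1* between IM72h and IM24h in RiboTag libraries.

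The study followed post-operative ileus, a stop of gut movement after abdominal surgery, in the small bowel *muscularis externa* (*ME*), the muscle wall that houses the enteric nervous system with its glia. Intestinal manipulation (IM) is a light rolling pressure on the small bowel, lifted out through an opening in the abdomen, and tissue was taken 3 h, 24 h or 72 h later (IM3h, IM24h, IM72h). Measured were total *ME* RNA and RNA pulled down with hemagglutinin-tagged ribosomes (RiboTag), which the design restricts to cells with Cre. The libraries were made from RNA 3′ ends, and the question was how these genes changed in the glial and in the whole-tissue RNA after surgery.

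All animals were male mice of 10 to 12 weeks that carried the tagged ribosomal allele Rpl22tm1.1Psam. RiboTag libraries came from the Sox10-icre/ERT2 line, in which the *Sox10* promoter drives an inducible Cre in glia and tamoxifen was given for 3 days, and comprised 3 naïve, 4 IM3h, 4 IM24h and 4 IM72h libraries. Total *ME* RNA comprised 3 naïve and 3 IM3h libraries of a line with constitutive Gfap-cre, and 4 IM24h and 4 IM72h libraries of the Sox10-icre/ERT2 line. Within total *ME* RNA the Cre line and its tamoxifen therefore changed together with the 2 later time points and cannot be told apart from them. Naïve mice had no operation, so the manipulation cannot be told apart from anaesthesia, incision and the pain medication tramadol that came with it.

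Metallothioneins are small, cysteine-rich proteins that hold zinc and copper and take up reactive oxygen species. Free zinc in the cell activates MTF1, which binds short metal response elements in the promoters of the metallothionein genes and of *Slc30a1*, so that storage and export rise with the metal. *Slc39a14* is known as an importer of zinc, manganese and non-transferrin iron that is induced by IL-6 during acute inflammation, and metallothionein genes also respond to glucocorticoids and to STAT3 and NRF2 signalling.

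*Mt1* and *Mt2* are neighbours on mouse chromosome 8, with 5513 bases between them. In mm10 *Mt2* spans chr8:94172664-94173568 and *Mt1* chr8:94179082-94180327, both on the plus strand. *Slc30a1* lies on chr1:191906767-191913247 (plus strand), *Slc39a14* on chr14:70303469-70351425 (minus strand) and *Mtf1* on chr4:124802104-124849800 (plus strand). Because the results turn on the metallothioneins, the stretch before their first annotated base is shown with that of *Slc30a1*, from RefSeq on GRCm38.p6, 5′ to 3′ on the plus strand, with capitals marking the core of the metal response element (TGCACNC or TGCGCNC, on either strand). The *Mt1* stretch is chr8:94178839-94179081, the *Mt2* stretch chr8:94172368-94172617 and the *Slc30a1* stretch chr1:191906531-191906766.
Mt1: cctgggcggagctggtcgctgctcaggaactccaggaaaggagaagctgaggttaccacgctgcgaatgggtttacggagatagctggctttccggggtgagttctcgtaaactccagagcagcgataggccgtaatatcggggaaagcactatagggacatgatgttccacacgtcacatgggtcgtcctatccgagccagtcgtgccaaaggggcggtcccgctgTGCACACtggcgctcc
Mt2: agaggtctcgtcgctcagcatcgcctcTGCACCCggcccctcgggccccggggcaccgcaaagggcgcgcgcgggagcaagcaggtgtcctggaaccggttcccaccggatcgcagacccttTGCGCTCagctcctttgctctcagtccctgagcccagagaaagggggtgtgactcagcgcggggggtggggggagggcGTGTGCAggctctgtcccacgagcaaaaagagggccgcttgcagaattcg
Slc30a1: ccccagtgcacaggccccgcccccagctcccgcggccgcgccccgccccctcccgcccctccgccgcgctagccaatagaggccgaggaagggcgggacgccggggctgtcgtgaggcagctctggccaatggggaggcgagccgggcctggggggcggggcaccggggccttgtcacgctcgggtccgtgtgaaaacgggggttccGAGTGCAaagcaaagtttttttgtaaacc
Over the RefSeq window of 300 bases, from 250 before to 50 after the start, the core matched 3 times for *Mt1*, 4 times for *Mt2*, 2 times for *Slc30a1* and 0 times for *Mtf1*. Of these matches the printed stretches hold 1 for *Mt1*, 3 for *Mt2* and 1 for *Slc30a1*, and the rest lie after the stretch. Sites beyond the window were not counted. Of 32851 promoter windows of that length in the mouse table, 25.7% held at least 1 match, 7.11% at least 2, 1.97% at least 3 and 0.517% at least 4. A match is a run of letters and was not tested for binding. RefSeq entries were found for 4 of the 5 members, the exception being *Slc39a14*.

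Total counts ranged from 3010306 to 7899493 in RiboTag and from 6603170 to 12866062 in total *ME* libraries. Part of this was AY036118, a gene model that overlaps rRNA sequence, which took 58.0% to 80.1% of counts in the RiboTag IM72h libraries, 22.2% to 59.2% at IM24h and at most 13.98% in naïve and IM3h libraries. The total *ME* share was 16.1% to 33.5% in naïve, 24.1% to 25.1% in IM3h and 1.3% to 6.5% in later libraries. The 5 glial markers (*Sox10*, *S100b*, *Gfap*, *Foxd3* and *Erbb3*) summed to 1279 to 1631 normalized CPM in naïve RiboTag libraries against 81.4 to 89.9 in naïve total *ME* RNA. In RiboTag libraries this sum was 1148 to 2534 at IM3h, 604 to 882 at IM24h and 140.4 to 1128 at IM72h, and the 6 smooth muscle markers reached 6652 in naïve libraries, so muscle RNA was present in the pull-down. Single glial markers went opposite ways at IM3h in RiboTag libraries, where *Gfap* was called higher (2.26 ± 0.27, edgeR adjusted p = 3.14e-04) and *Sox10* (-0.97 ± 0.29, edgeR adjusted p = 0.0471) and *Erbb3* (-1.04 ± 0.27, edgeR adjusted p = 0.0234) lower. The study counts its replicates as animals, so libraries of a group were taken as separate mice. Normalized CPM (counts per 1e6) here means CPM after TMM scaling over the libraries of the fraction, and RiboTag and total *ME* values are scaled apart.

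In RiboTag libraries *Mt1* rose most at IM3h. The 3 naïve RiboTag libraries held 67.2, 83.1 and 93.1 normalized CPM, from 598 to 737 counts. The 4 IM3h libraries held 1798, 1915, 2918 and 4431 normalized CPM, from 16550 to 57643 counts. Every IM3h library was above every naïve library on each of 3 scales, namely TMM, library total and the reference genes *Actb*, *Hsp90ab1* and *Rplp1*. The log2 fold change was 5.14 ± 0.41 (SE), a 35.3-fold rise (edgeR adjusted p = 2.57e-05) that ranked 173 of 16053 genes by size of rise. At IM24h the libraries held 179, 187, 208 and 510 normalized CPM. These lay above the naïve libraries by TMM but overlapped them by library total (109 to 554 against 124 to 149 CPM) and against the reference genes. The log2 difference of 1.77 ± 0.45 was not called (edgeR adjusted p = 0.0994), and it was 0.92 by library total and 0.22 with the reference genes. It was called without IM24h library 1 (1.93, edgeR adjusted p = 0.0371) and was 1.26 without IM24h library 4, the highest (edgeR adjusted p = 0.187). At IM72h *Mt1* stood at 0.613, 5.20, 55.4 and 83.6 normalized CPM, from 1 to 191 counts. The group overlapped the naïve libraries by TMM, while every IM72h library was lower by library total (0.332 to 49.5 against 124 to 149 CPM) and against the reference genes. The log2 difference was -1.15 ± 1.22 (edgeR adjusted p = 0.744).

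*Mt2* moved in the same order with a wider span. Naïve RiboTag libraries held 15.1, 17.6 and 44.7 normalized CPM. At IM3h the libraries held 1357, 1579, 3414 and 6385 normalized CPM, from 13649 to 83058 counts. The groups did not overlap, and the log2 fold change was 7.0 ± 0.72 (edgeR adjusted p = 1.22e-04), ranked 111 of 16053 by size of rise. *Mt1* and *Mt2* together made up 0.0151% to 0.0221% of all counts in naïve and 0.430% to 1.84% in IM3h RiboTag libraries. At IM24h the values were 26.4, 80.2, 102 and 154 normalized CPM, which overlapped the naïve libraries through the lowest of them. The log2 difference of 1.85 ± 0.61 was not called (edgeR adjusted p = 0.180). At IM72h *Mt2* had 0, 4, 4 and 21 counts (0 to 9.19 normalized CPM). Every one of these libraries was below the lowest naïve library, yet the log2 difference of -2.73 ± 1.69 was not called (edgeR adjusted p = 0.457). In the joint fit of all groups it was called at about the same size (-2.71 ± 0.75, edgeR adjusted p = 0.0349), with 1258 of 17930 genes called.

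Markers of other cell types were compared over the same RiboTag libraries: the 5 neutrophil markers summed to 1.24 to 3.16 normalized CPM in naïve and 3.38 to 10.7 in IM3h libraries, the 6 macrophage markers to 61.7 to 90.3 and 49.97 to 90.5, and the 6 smooth muscle markers to 4362 to 6652 and 1702 to 3990 (3 of 6 called lower). The 4 mesothelial markers summed to 83.8 to 237 in naïve and 6.93 to 67.9 in IM3h libraries (3 of 4 called lower), and the 4 fibroblast markers to 387 to 477 and 154 to 219 (2 of 4 called lower). The 3 markers of interstitial cells of Cajal, the pacemaker cells of the gut, summed to 86.8 to 124 in naïve and 27.7 to 55.5 in IM3h libraries, which did not overlap (1 of 3 called lower). At IM24h the neutrophil markers summed to 7.14 to 48.9 normalized CPM and the smooth muscle markers to 922 to 2225 (3 of 6 called lower), and neither range overlapped the naïve one. The fibroblast sum of 140.1 to 339 and that of interstitial cells of Cajal, 22.4 to 75.5, also lay below naïve at IM24h, with 0 of their markers called. The epithelial marker sum was lower there too, at 2.85 to 33.5 against 34.0 to 70.3 in naïve libraries, while the endothelial sum of 28.4 to 79.3 overlapped the naïve 15.4 to 31.6. Their part in the metallothionein levels was not tested.

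Of the 5 members, 3 were called in RiboTag libraries at IM3h, all higher, where 13.3% of all genes tested were called in either direction and 8.86% as higher. At IM24h 0 members were called against a background of 0.497%, 2 of them with an unadjusted p under 0.05, and DESeq2 called 1, *Mt1* (adjusted p = 0.0100), among 867 of 15304 genes. At IM72h 0 members were called against 16.1%, 0 with an unadjusted p under 0.05 and 0 by DESeq2. In the step from IM3h to IM24h 2 members were called against 1.9% of all genes: *Mt1* fell by 3.28 ± 0.48 (edgeR adjusted p = 0.00506) and *Mt2* fell by 5.06 ± 0.67 on the log2 scale (edgeR adjusted p = 0.00251). The *Mt1* step was not called in the joint fit of all groups (-3.35, edgeR adjusted p = 0.0691). From IM24h to IM72h edgeR called 0 of 9344 genes (0%), 2 members had an unadjusted p under 0.05, and DESeq2 called 1 member, *Mt2*, among 123 of 9344 genes. The joint edgeR fit of all groups called 628 of 17930 genes in this step, among them *Mt1* (-2.91, adjusted p = 0.0386) and *Mt2* (-4.53, adjusted p = 0.00565), both lower. In that step every IM72h library lay below every IM24h library for *Mt1* and for *Mt2* on all 3 scales. In bulk RNA, fewer cells of a type and less RNA per cell cannot be told apart. At IM72h the glial marker sum lay below the naïve range, and so did those of neurons (88.8 to 418 against 465 to 994 normalized CPM), mesothelium (0 to 52.9 against 83.8 to 237) and interstitial cells of Cajal (0.613 to 86.2 against 86.8 to 124). The sums of the other cell types overlapped their naïve ranges. The part of these sums in the low IM72h values was not tested. The lowest glial sum at IM72h, 140.4 normalized CPM, was that of library 2, against 775 to 1128 in the other 3 libraries. Library 2 also had the highest sums there of smooth muscle markers (6798 against 1862 to 2573) and fibroblast markers (997 against 216 to 346), and the highest *Mt1* (191 counts) and *Mt2* (21 counts). Without it the IM72h differences from naïve were -2.08 for *Mt1* (edgeR adjusted p = 0.383) and -3.74 for *Mt2* (edgeR adjusted p = 0.152). With 43 rRNA genes left out, AY036118 included, the IM72h differences from naïve were -1.18 for *Mt1* and -2.75 for *Mt2*.

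**Figure D1:**
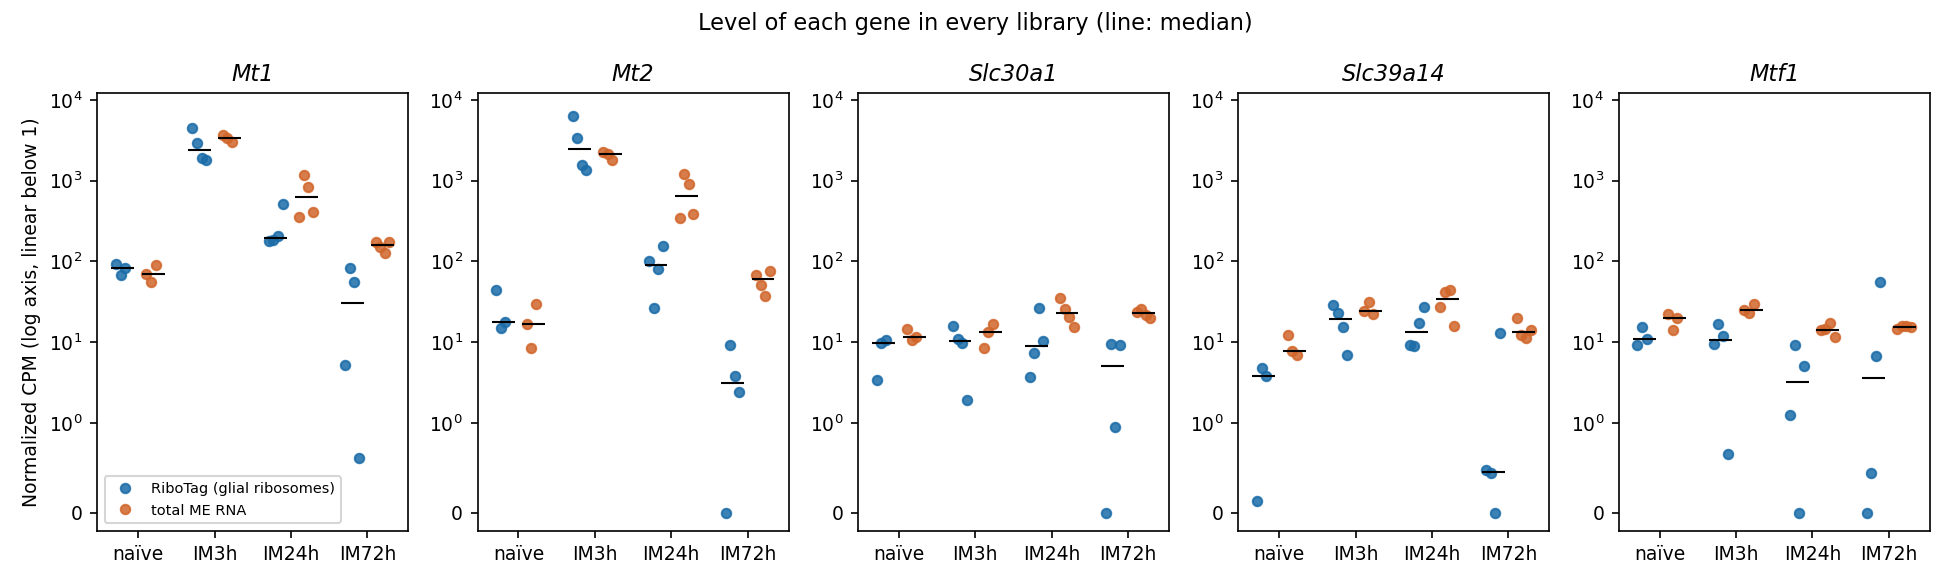
Normalized CPM (vertical, log axis that is linear below 1) of each of the 5 genes in every RiboTag (blue) and total *ME* (orange) library by time point, with the group median as a line. *Mt1* and *Mt2* peaked at IM3h in both fractions, and RiboTag IM72h libraries spread from 0 upward for *Mt2*, *Slc30a1*, *Slc39a14* and *Mtf1*.

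In total *ME* RNA both metallothioneins rose at IM3h and were still higher than naïve at IM24h and IM72h. *Mt1* went from 55.0, 69.5 and 90.2 normalized CPM in naïve libraries to 2972, 3373 and 3639 at IM3h. It then held 357, 411, 841 and 1187 normalized CPM at IM24h and 126, 151, 172 and 176 at IM72h. Each of the 3 time points lay above every naïve library by TMM. The log2 fold changes were 5.58 ± 0.21 (edgeR adjusted p = 2.56e-07), 3.28 ± 0.44 (edgeR adjusted p = 5.65e-04) and 1.09 ± 0.18 (edgeR adjusted p = 3.84e-04).

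*Mt2* went from 8.38, 16.7 and 30.0 normalized CPM in naïve total *ME* libraries to 1789, 2135 and 2244 at IM3h. It held 344, 392, 908 and 1208 normalized CPM at IM24h and 37.8, 51.2, 68.4 and 75.2 at IM72h. No time point overlapped the naïve libraries by TMM, and the IM24h libraries for both genes fell into a lower pair (libraries 1 and 4) and a higher pair (libraries 2 and 3). The neutrophil markers split the same way, at 52.1 and 44.3 normalized CPM in libraries 1 and 4 against 144 and 211 in libraries 2 and 3, and the smooth muscle markers the opposite way, at 8243 and 10108 against 2930 and 5265. The log2 fold changes were 6.82 ± 0.38 (edgeR adjusted p = 1.22e-06), 5.25 ± 0.61 (edgeR adjusted p = 2.91e-04) and 1.60 ± 0.35 (edgeR adjusted p = 0.00247). Of 15333 genes, *Mt2* ranked 13 and *Mt1* 31 by size of rise at IM3h. With scaling to the reference genes, which moved the median of all genes to -0.58 at IM72h, the IM72h values fell to 0.48 for *Mt1* (edgeR adjusted p = 0.0819) and 0.98 for *Mt2* (edgeR adjusted p = 0.0432).

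The members called in total *ME* RNA numbered 3 at IM3h, 4 at IM24h and 4 at IM72h, all of them higher than naïve. Of all genes tested, 32.7% were called at IM3h (19.3% as higher), 29% at IM24h (15.6% as higher) and 57.5% at IM72h (29.3% as higher). Between IM3h and IM24h 4 members were called against 27.6% of all genes: *Mt1* fell by 2.21 ± 0.38 (edgeR adjusted p = 0.00219) and *Mt2* fell by 1.49 ± 0.39 (edgeR adjusted p = 0.0181). The *Mt2* step was -0.70 by library total (edgeR adjusted p = 0.155) and missed the threshold without IM3h library 1 or 2 (adjusted p 0.0580 and 0.0549). The other two of that step were *Mtf1* and *Slc30a1*, described below with their values. Between IM24h and IM72h 3 members were called against 38.5%, and *Mt1* fell by 2.20 ± 0.35 (edgeR adjusted p = 7.27e-04) and *Mt2* fell by 3.65 ± 0.43 (edgeR adjusted p = 1.25e-04). Markers of other cell types also differed between the groups: the 5 neutrophil markers summed to 0.845 to 0.860 normalized CPM in naïve, 21.6 to 30.0 in IM3h, 44.3 to 211 in IM24h and 19.5 to 56.0 in IM72h libraries, and the 6 macrophage markers to 110 to 115, 88.6 to 106, 185 to 331 and 355 to 427. In the same order, the 6 smooth muscle markers summed to 20950 to 21901, 15792 to 18778, 2930 to 10108 and 11188 to 19588, the 4 mesothelial markers to 86.5 to 125, 1.77 to 11.7, 6.49 to 73.7 and 30.1 to 71.3, and the 4 fibroblast markers to 1535 to 1648, 779 to 869, 780.3 to 1822 and 2850.0 to 3326. The 4 epithelial markers summed to 90.9 to 235, 155 to 891, 31.6 to 109 and 106 to 308, and 4 of 4 were called lower from IM3h to IM24h (median log2 -2.75), the step in which *Mt1* and *Mt2* fell. The 3 endothelial markers summed to 25.8 to 26.7, 34.7 to 44.0, 40.3 to 57.3 and 49.5 to 64.0, with 1, 2 and 3 of them called higher than naïve at the 3 times. The 3 markers of interstitial cells of Cajal summed to 232 to 247, 169 to 186, 126 to 247 and 81.5 to 102 (3 of 3 called lower at IM72h), and the 6 neuronal markers to 430.1 to 447, 350.3 to 399, 270.01 to 323 and 337 to 427. The 5 glial markers summed to 81.4 to 89.9, 96.4 to 123, 76.4 to 109 and 86.2 to 210, with 2 of 5 called higher and 1 lower at IM3h and at IM72h (*Gfap* and *Sox10* higher and *S100b* lower at both). Their part in the metallothionein levels was not tested.

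**Figure D2:**
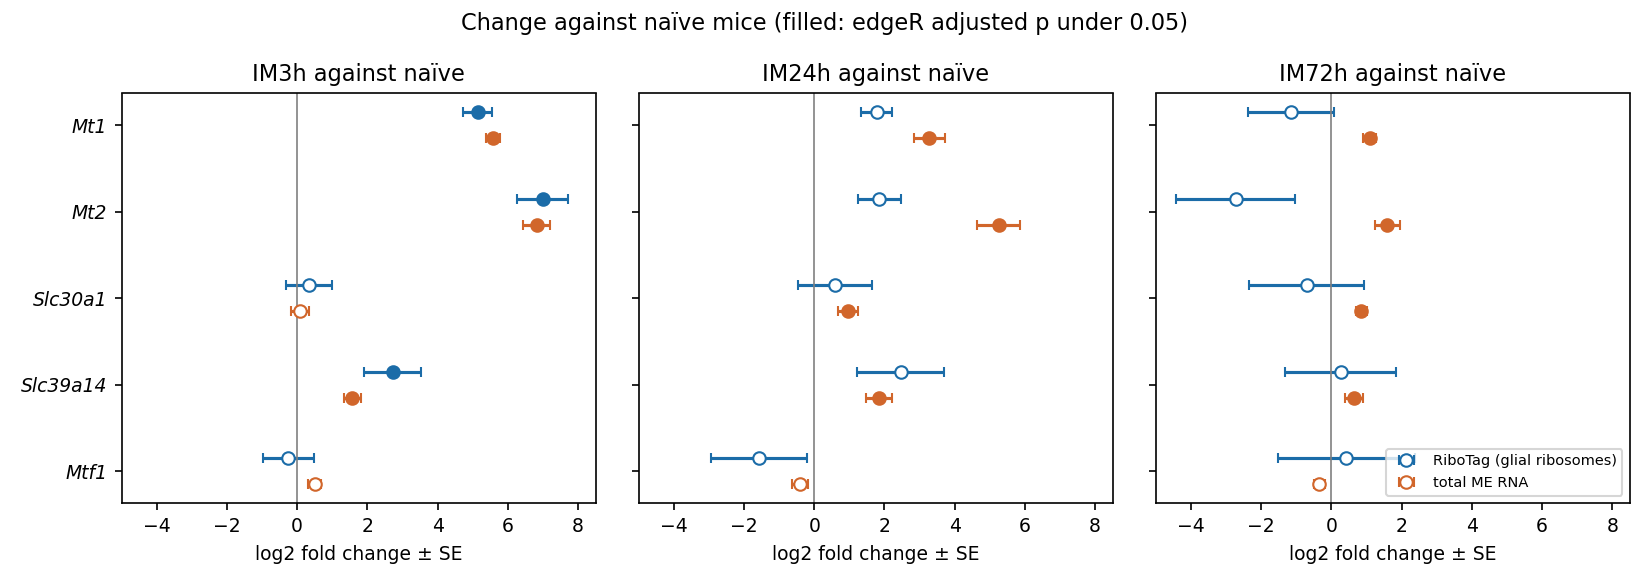
Log2 fold change against naïve mice (horizontal, ± SE) of each gene in RiboTag (blue) and total *ME* RNA (orange) at IM3h, IM24h and IM72h, filled where the edgeR adjusted p was under 0.05. *Mt1* and *Mt2* lie close together in both fractions at IM3h, and at IM72h the RiboTag values lie below 0 while the total *ME* values lie above it.

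Whether the 2 fractions responded by different amounts was tested as an interaction in a joint fit. The methods describe that part of each lysate was kept as input before the pull-down, so total *ME* and RiboTag libraries of IM24h and IM72h may come from the same mice, and the fit treats them as independent. At IM3h the RiboTag change minus the total *ME* change was -0.35 ± 0.41 for *Mt1* (edgeR adjusted p = 0.789) and 0.26 ± 0.75 for *Mt2* (edgeR adjusted p = 0.937) on the log2 scale, and 0 members were called against 1.66% of all genes (0 also by DESeq2 and 0 with an unadjusted p under 0.05). At IM24h the difference was -1.49 ± 0.62 for *Mt1* (edgeR adjusted p = 0.298) and -3.38 ± 0.84 for *Mt2* (edgeR adjusted p = 0.0884), with 0 members called against 0.537%, 2 with an unadjusted p under 0.05 and 1 by DESeq2, *Mt2*, among 865 of 17508 genes. The *Mt2* difference was also called by library total (-4.70, edgeR adjusted p = 0.0296, where the median of all genes was -1.64) and without RiboTag IM24h library 1 (-3.65, edgeR adjusted p = 0.0351) or 4 (-3.78, edgeR adjusted p = 0.0461). At IM72h 1 member was called against 23.3%: *Mt2*, with a difference of -4.56 ± 1.35 (edgeR adjusted p = 0.0249), where the median of all genes was -0.98. That call was lost when naïve RiboTag library 1 (adjusted p = 0.0662), naïve total *ME* library 1 (0.0738) or 2 (0.0796), or total *ME* IM72h library 1 (0.0506) or 4 (0.0538) was left out of the edgeR fit. The *Mt1* difference at IM72h was -2.47 ± 1.35 (edgeR adjusted p = 0.232), and it was called without RiboTag IM72h library 2 (-3.51, edgeR adjusted p = 0.0465), with 6216 of 16645 genes called. In the IM24h and IM72h interactions the Cre line of the total *ME* libraries changes with time and cannot be told apart from it. At IM72h the glial marker sum was below naïve in RiboTag libraries (140.4 to 1128 against 1279 to 1631 normalized CPM). In total *ME* RNA it overlapped naïve (86.2 to 210 against 81.4 to 89.9). The endothelial sum overlapped naïve in RiboTag libraries and was above it in total *ME* RNA, and the mesothelial sum was below naïve in both. Their part in the interaction was not tested.

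The ratio of *Mt2* to *Mt1* counts within a library does not depend on scaling between libraries. The ratio is not a ratio of molecules, since both genes are similar in sequence and reads could be split between them. In RiboTag libraries it was 0.211, 0.224 and 0.480 in naïve mice and 0.755, 0.825, 1.17 and 1.44 at IM3h, with no overlap. The total *ME* ratio was 0.152, 0.240 and 0.332 in naïve mice, 0.602, 0.617 and 0.633 at IM3h, and 0.953 to 1.08 at IM24h. Every IM3h library thus had more *Mt2* for each *Mt1* count than every naïve library of its fraction, and in total *ME* RNA every IM24h library lay above every IM3h library. By IM72h the total *ME* ratio was 0.301 to 0.428, which overlapped the naïve range, and in RiboTag libraries at IM24h it was 0.142 to 0.568. In RiboTag IM72h libraries the ratio rests on 5 to 212 counts of both genes and ranged from 0 to 4. Mean log2 ratios differed from naïve by 1.83 in RiboTag at IM3h and by 2.12 in total *ME* RNA at IM24h (exact two-sided permutation test, p = 0.0286 each, the smallest these group sizes allow, adjusted over 6 comparisons p = 0.0857). For total *ME* RNA at IM3h the difference was 1.42 (exact permutation p = 0.1, the smallest that 3 against 3 allows), so no adjusted value passed 0.05.

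**Figure D3:**
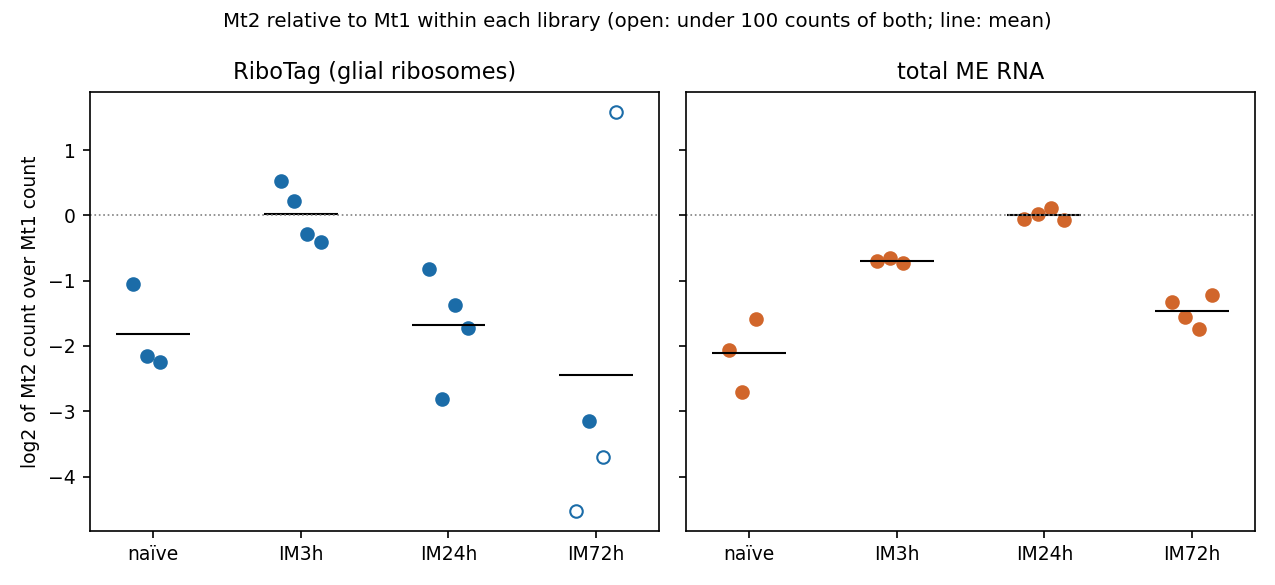
Log2 of the *Mt2* count over the *Mt1* count (vertical, 0.5 added to each) in every RiboTag and total *ME* library by time point, with the group mean as a line and libraries with under 100 counts of both genes drawn open. The ratio was higher in every IM3h than in every naïve library of its fraction and reached its highest total *ME* values at IM24h.

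*Slc30a1*, the exporter that carries zinc out of the cytosol across the plasma membrane, was not called at IM3h in either fraction. Naïve RiboTag libraries held 27, 88 and 91 counts (3.41 to 10.7 normalized CPM) and IM3h libraries 21, 85, 116 and 208 counts (1.95 to 16.0 normalized CPM), and the groups overlapped. Its log2 difference was 0.33 ± 0.66 at IM3h (edgeR adjusted p = 0.810), 0.59 ± 1.06 at IM24h (edgeR adjusted p = 0.880) and -0.70 ± 1.64 at IM72h (edgeR adjusted p = 0.914). The direction at IM24h turned to -0.64 by library total and -1.43 with the reference genes. At IM72h the RiboTag libraries held 0, 1, 15 and 22 counts. Naïve total *ME* libraries held 10.5, 11.5 and 14.7 normalized CPM and IM3h libraries 8.44, 13.3 and 16.6, with a log2 difference of 0.09 ± 0.26 (edgeR adjusted p = 0.809). It was higher later, at 15.4, 20.5, 25.7 and 34.98 normalized CPM at IM24h and 19.99, 22.0, 23.6 and 25.5 at IM72h, above every naïve library by TMM. The log2 fold changes were 0.97 ± 0.29 (edgeR adjusted p = 0.0303) and 0.85 ± 0.16 (edgeR adjusted p = 9.77e-04), and from IM3h to IM24h 0.96 ± 0.32 (edgeR adjusted p = 0.0465). With the reference genes both calls against naïve were lost, at 0.50 (edgeR adjusted p = 0.252) and 0.24 (edgeR adjusted p = 0.313). The IM24h call against naïve was also lost when any naïve total *ME* library or IM24h library 1 or 2 was left out (adjusted p 0.0507 to 0.121), and the step from IM3h held in 1 of 7 such fits (adjusted p 0.0133 to 0.177).

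*Slc39a14*, the importer, was called higher at IM3h in both fractions, but in RiboTag libraries the call depended on the fit. The naïve RiboTag libraries held 1, 32 and 43 counts (0.126, 3.77 and 4.83 normalized CPM). The IM3h libraries held 74, 134, 240 and 376 counts (6.88, 15.5, 22.8 and 28.9 normalized CPM). All were above the naïve libraries by TMM and by library total, but the groups overlapped against the reference genes. Its log2 fold change of 2.72 ± 0.82 passed narrowly (edgeR adjusted p = 0.0479). The call was lost with scaling by library total (adjusted p = 0.0879) or the reference genes (0.226), in the joint fit of all groups (2.66 ± 1.58, adjusted p = 1.0) and without any 1 library except IM3h library 4 (adjusted p 0.0624 to 0.118, log2 2.17 to 3.31, against 0.0175 without IM3h library 4); without naïve library 1, the library with 1 count, it was 2.17 (edgeR adjusted p = 0.0624). At IM24h the RiboTag values were 8.94, 9.27, 17.2 and 27.5 normalized CPM with a log2 difference of 2.46 ± 1.25 (edgeR adjusted p = 0.439). At IM72h 3 libraries had 0, 1 and 1 counts and library 4 had 21 counts, and the log2 difference of 0.26 ± 1.59 (edgeR adjusted p = 0.969) became -1.47 by library total.

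In total *ME* RNA *Slc39a14* rose from 6.89, 7.74 and 12.2 normalized CPM in naïve libraries to 22.1, 24.2 and 31.2 at IM3h. It held 16.1, 27.3, 41.5 and 44.6 normalized CPM at IM24h and 11.4, 12.2, 14.1 and 19.8 at IM72h. The IM3h and IM24h libraries were above every naïve library, and the IM72h libraries overlapped them. The log2 fold changes were 1.57 ± 0.24 (edgeR adjusted p = 7.53e-04), 1.84 ± 0.37 (edgeR adjusted p = 0.00458) and 0.64 ± 0.25 (edgeR adjusted p = 0.0490). The IM72h value became 0.01 with the reference genes (edgeR adjusted p = 0.972) and was not called in 5 of the 7 fits that left out 1 library (adjusted p 0.0145 to 0.187 over all 7). From IM24h to IM72h it fell by 1.20 ± 0.31 (edgeR adjusted p = 0.0100). The step from IM3h to IM24h was 0.36 ± 0.32 and not called (edgeR adjusted p = 0.426), but it was 1.16 and called by library total (edgeR adjusted p = 0.0139), where the median of all genes was 0.84.

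*Mtf1* encodes the zinc-finger factor that reads free zinc and acts on the metallothionein promoters. Its RNA was not called against naïve in either fraction with TMM scaling and all libraries. Naïve RiboTag libraries held 9.35, 10.8 and 15.6 normalized CPM and IM3h libraries 0.651, 9.38, 11.8 and 16.6, where the lowest is library 4 with 7 counts. The log2 difference at IM3h was -0.25 ± 0.73 (edgeR adjusted p = 0.876) and 0.13 without that library, or 0.01 without naïve library 2. IM24h libraries held 0, 10, 23 and 27 counts, with a log2 difference of -1.57 ± 1.36 (edgeR adjusted p = 0.715). IM72h libraries held 0, 1, 7 and 91 counts, with a log2 difference of 0.43 ± 1.95 (edgeR adjusted p = 0.960) that became -2.29 without library 4. Over total *ME* libraries the range was 14.2 to 22.1 normalized CPM in naïve, 23.1 to 29.7 in IM3h, 11.5 to 17.1 in IM24h and 14.4 to 15.8 in IM72h libraries. The differences from naïve of 0.50 ± 0.19 (edgeR adjusted p = 0.0626), -0.41 ± 0.23 (edgeR adjusted p = 0.218) and -0.34 ± 0.16 (edgeR adjusted p = 0.0939) were not called. The last 2 turned positive by library total (0.22 and 0.25). At IM72h *Mtf1* was called lower with the reference genes (-0.95, edgeR adjusted p = 0.00300), a scale on which every IM72h library was below every naïve library, and without naïve library 2 (-0.49, edgeR adjusted p = 0.0143). From IM3h to IM24h it fell by 0.82 ± 0.21 on the log2 scale (edgeR adjusted p = 0.0146), a value that was -0.02 by library total (edgeR adjusted p = 0.956) and not called with the reference genes or without IM3h library 1 or 3 (adjusted p 0.0649, 0.0510 and 0.0787).

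In naïve mice the 2 fractions were compared as counts per 1000 counts of the geometric mean of *Actb*, *Hsp90ab1* and *Rplp1*. *Mt1* stood at 30.5 to 38.1 in RiboTag and 16.3 to 29.8 in total *ME* libraries, which did not overlap, with a log2 difference of 0.63 (exact permutation p = 0.1, the smallest that 3 against 3 allows, adjusted over 5 genes p = 0.5). The other 4 members overlapped between fractions, so 1 of 5 did not overlap where 34.7% of 20294 genes did not (18% with RiboTag higher). *Mt2* stood at 7.89 to 14.7 against 2.48 to 9.89 and *Slc30a1* at 1.12 to 5.18 against 3.11 to 4.87. *Mtf1* stood at 3.06 to 8.19 against 4.19 to 7.30. For *Slc39a14* the RiboTag range of 0.0414 to 2.53 had its low end in the library with 1 count, against 2.27 to 4.03 in total *ME* RNA. The fractions came from different Cre lines here, and glial RNA is also part of total *ME* RNA.

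The third metallothionein listed in the tables with enough counts, *Mt3*, known as the brain form, was called in RiboTag libraries at no time point at which it was tested. Its log2 difference was 0.48 ± 1.16 at IM3h in RiboTag (edgeR adjusted p = 0.846) and 0.16 in total *ME* RNA (edgeR adjusted p = 0.777), and in total *ME* RNA at IM72h it fell by 1.31 ± 0.31 (edgeR adjusted p = 0.00434). The total *ME* difference at IM24h was larger, -2.63 ± 0.91, but not called against naïve (edgeR adjusted p = 0.0529), while the step from IM3h to IM24h was called at -2.70 ± 0.89 (edgeR adjusted p = 0.0456). *Mt3* had 0 counts in all 4 RiboTag IM72h libraries, and its IM72h interaction was called lower in RiboTag (-5.61, edgeR adjusted p = 0.0225), a fitted size that depends on the count added to those zeros. Its promoter window held 1 core match.

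Among the 9 other Slc30a exporters, 7, 5 and 5 were tested in RiboTag libraries at IM3h, IM24h and IM72h. At each time 0 were called in either direction, where 13.3%, 0.497% and 16.1% of all genes were, and with so few genes tested 0 is close to that background. They had median log2 differences of 0.33, 0.36 and 0.35 against -0.04, -0.11 and -0.40 over all genes. For total *ME* RNA 1 of 7 was higher at IM3h, 3 of 6 at IM24h and 1 of 7 at IM72h, and 0 were lower, where 19.3%, 15.6% and 29.3% of all genes were called higher. *Slc30a4*, which loads zinc into vesicles, was called at each time, at 0.73 ± 0.14 (edgeR adjusted p = 0.00352), 1.24 ± 0.27 (edgeR adjusted p = 0.00694) and 1.08 ± 0.16 (edgeR adjusted p = 2.05e-04). *Slc30a7* rose by 0.79 ± 0.22 (edgeR adjusted p = 0.0196) and *Slc30a5* by 0.74 ± 0.24 (edgeR adjusted p = 0.0439) at IM24h, both transporters of the secretory pathway.

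Among the 13 other Slc39a importers, 10 were tested in RiboTag libraries at IM3h and 1 was higher: *Slc39a10*, a plasma membrane importer, at 1.72 ± 0.45 (edgeR adjusted p = 0.0259), where 8.86% of all genes were called higher. The same gene was lower at IM72h, at -4.61 ± 1.31 (edgeR adjusted p = 0.0378), the 1 call among 11 tested there, and 0 of 10 were called at IM24h (16.1% and 0.497% of all genes). In total *ME* RNA 3 of 11 were higher and 1 lower at IM3h, 4 of 11 higher and 2 lower at IM24h, and 7 of 12 higher and 2 lower at IM72h. Over all genes 32.7%, 29% and 57.5% were called in either direction. At IM3h these were *Slc39a10* (1.47 ± 0.15, edgeR adjusted p = 6.88e-05), *Slc39a6* (1.04 ± 0.12, edgeR adjusted p = 1.36e-04), *Slc39a1* (1.22 ± 0.18, edgeR adjusted p = 5.77e-04) and the lower *Slc39a3* (-1.03 ± 0.19, edgeR adjusted p = 0.00239). *Slc39a1*, a broadly expressed plasma membrane importer, stayed higher at 1.5 ± 0.22 at IM24h (edgeR adjusted p = 9.76e-04) and 1.40 ± 0.18 at IM72h (edgeR adjusted p = 6.15e-05). The importers' median log2 differences in total *ME* RNA were 0.26, 0.39 and 0.45 against 0.00, 0.02 and 0.02 over all genes.

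**Figure D4:**
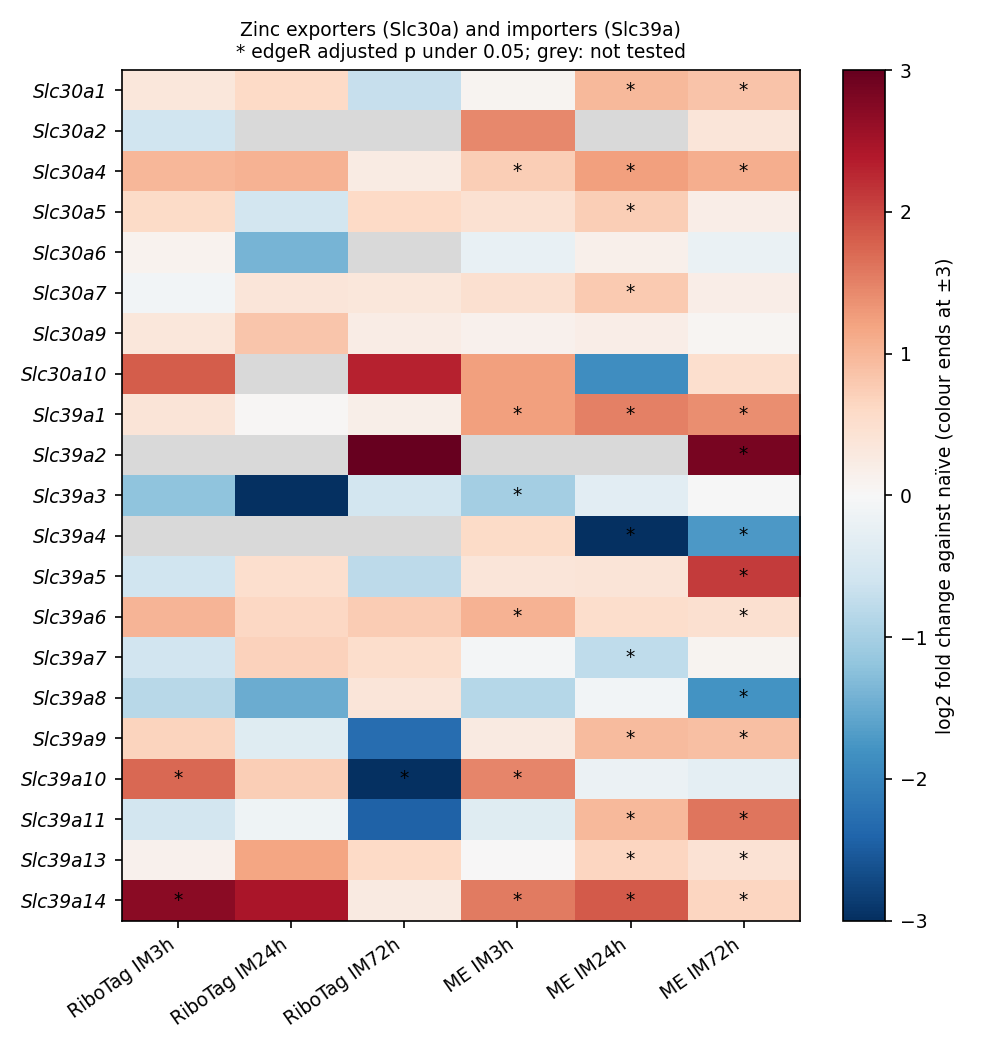
Log2 fold change against naïve (colour) of each tested Slc30a exporter and Slc39a importer in 6 comparisons, with stars at edgeR adjusted p under 0.05 and grey where a gene was not tested. Stars in the RiboTag columns fall on *Slc39a14* and *Slc39a10*, and most stars lie in the total *ME* columns.

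Of 6 other known regulators of metallothionein genes, 2 were higher in RiboTag libraries at IM3h and 0 lower, where 8.86% of all genes were called higher and 13.3% in either direction. These were *Nfe2l2*, which encodes NRF2, at 1.39 ± 0.35 (edgeR adjusted p = 0.0202), and *Stat3*, the signal transducer of IL-6, at 1.03 ± 0.26 (edgeR adjusted p = 0.0217). The same 2 genes rose in total *ME* RNA at IM3h, by 1.92 ± 0.10 (edgeR adjusted p = 8.77e-07) and 1.81 ± 0.12 (edgeR adjusted p = 4.49e-06), together with *Sp1* (0.38 ± 0.13, edgeR adjusted p = 0.0488). Total *ME* counts of the 6 gave 3 higher and 1 lower at IM3h, 2 higher and 0 lower at IM24h, and 2 higher and 2 lower at IM72h, against 32.7%, 29% and 57.5% of all genes called in either direction. *Nr3c1*, the glucocorticoid receptor gene, was lower there at IM3h (-0.65 ± 0.10, edgeR adjusted p = 7.92e-04) and at IM72h (-1.29 ± 0.12, edgeR adjusted p = 6.92e-06). In RiboTag libraries 0 of the 6 were called at IM24h and at IM72h (0.497% and 16.1% of all genes).

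Genes of the other metals that metallothioneins meet were counted as well. Of 10 copper genes, 9 were tested in RiboTag libraries, of which 0 were higher and 1 was lower at IM3h, 0 were called at IM24h and 1 was lower at IM72h, near the 13.3%, 0.497% and 16.1% of all genes called in either direction. The gene lower at IM3h was *Ccs*, the copper chaperone of superoxide dismutase, at -1.94 ± 0.54 (edgeR adjusted p = 0.0350). For total *ME* RNA 3 of 9 were higher and 0 lower at IM3h, 2 higher and 3 lower at IM24h, and 4 higher and 3 lower at IM72h, against the same shares of 32.7%, 29% and 57.5% of all genes. The copper importer *Slc31a1* was higher there at all 3 times, by 1.24 ± 0.18 (edgeR adjusted p = 5.73e-04), 1.09 ± 0.21 (edgeR adjusted p = 0.00348) and 1.34 ± 0.16 (edgeR adjusted p = 3.93e-05). Of 15 iron genes tested in RiboTag libraries, 4 were higher at IM3h and 1 was lower (13.3% of all genes were called in either direction), 0 were called at IM24h, and 0 of the 12 tested at IM72h were higher and 1 was lower (0.497% and 16.1% of all genes). *Hmox1*, which encodes the heme-degrading enzyme, rose by 4.54 ± 0.36 (edgeR adjusted p = 2.57e-05) and *Tfrc*, the transferrin receptor, by 2.60 ± 0.40 (edgeR adjusted p = 0.00157). *Fbxl5*, an iron sensor, rose by 1.49 ± 0.33 (edgeR adjusted p = 0.0108), while the ferritin heavy chain gene *Fth1* fell by 1.52 ± 0.43 (edgeR adjusted p = 0.0344). Among total *ME* libraries 8 of 15 iron genes were higher and 1 lower at IM3h, 10 higher and 0 lower at IM24h, and 12 higher and 1 lower at IM72h, where 19.3%, 15.6% and 29.3% of all genes were called higher. *Hmox1* rose there by 5.55 ± 0.24, 4.46 ± 0.31 and 3.74 ± 0.40 (edgeR adjusted p = 3.92e-07, 3.11e-05 and 2.10e-05).

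Over the 15 RiboTag libraries, the genes whose log2 levels followed *Mt1* most closely among 8140 genes were *Gnl3* (Pearson r = 0.961), *Eif5* (0.949), *Gclc* (0.942), *Mcl1* (0.930) and *Ccn1* (0.928), and *Mt2* came sixth at 0.923. Over the 14 total *ME* libraries, among 9174 genes, they were *Kcne4* (0.987), *Nfkb1* (0.986), *Cebpd* (0.985), *Mt2* (0.976) and *Adamts1* (0.974). For *Slc39a14* over RiboTag libraries the closest were *Hspd1-ps3* (0.895), a pseudogene, *Leo1* (0.893), *Hnrnpa3* (0.888), *Nrip3* (0.874) and *Limd1* (0.847). For *Slc39a14* in total *ME* RNA the closest were *E2f3* (0.937), *Sod2* (0.934), *Pus1* (0.930), *Resf1* (0.925) and *Skil* (0.925). These correlations follow the time points, and libraries share depth and scaling, so they are a description of the pattern. *Mtf1* stood at r = -0.017 with *Mt1* over RiboTag and 0.497 over total *ME* libraries, and *Slc39a14* at 0.468 and 0.776.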

How the data were processed

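Count tables were deposited for RiboTag and total *ME* libraries, made by the authors from 3′ end reads with cutadapt, STAR and Partek on mm10 (submitters' processing notes and the study's methods). The deposited values are estimated counts per transcript or gene, not normalized by the authors, and the RiboTag transcript counts were summed per gene and rounded to whole numbers. Such counting can split reads between *Mt1* and *Mt2*. Groups were read from the group entry of each line. Tables of the authors' own comparisons (p-values, ratios, group means) were not used. Labels list 4 naïve RiboTag samples and the tables used here held 3.

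Each comparison was fitted on its own groups with edgeR 4.0.16 (quasi-likelihood, TMM scaling, filterByExpr) in R 4.3.3 with limma 3.58.1, with Benjamini-Hochberg adjustment over all genes tested, and called at an adjusted p under 0.05; *SE* is that of the log2 fold change. Fractions were compared by an interaction term. Alternatives were DESeq2 1.42.0, other scalings and filters, rRNA genes left out, 1 joint fit and leaving out each library. Fits were tested on simulated data with the spread of the real libraries and 200 genes changed by 2 on the log2 scale. Of these changes, the RiboTag fits against naïve found 37.5% (IM3h), 1% (IM24h) and 0% (IM72h). The total *ME* fits found 91.5%, 69% and 95% in that order, and the IM3h interaction found 31.5%. An absent call in the later RiboTag groups therefore says little about changes of that size. Named genes were the members, at most 4 called genes of each list by p, and the 5 genes most like *Mt1* or *Slc39a14* by Pearson r among genes with a mean of at least 10 CPM. Members and lists were chosen with earlier results of these data known. 1 further glial marker is not reported here.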

Additional observations from a re-analysis of the deposited data

Results flagged for a closer look

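Among 30 groups of 4 libraries (5 genes and the *Mt2* to *Mt1* ratio, each in 5 groups), 3 held a library far from the others, and chance alone flags about 1 group in 20. *Mt1* in RiboTag IM24h library 4 stood at 510 normalized CPM, with the nearest library at 208. *Slc39a14* in RiboTag IM72h library 4 stood at 12.9 normalized CPM against 0.473 in the nearest, and *Mtf1* in the same library at 55.7 against 6.69, from 21 and 91 counts. The RiboTag change of *Mt2* at IM72h differed from that in total *ME* RNA by -4.56 on the log2 scale in the interaction test (edgeR adjusted p = 0.0249).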

How the results depend on the processing

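No paired analysis was possible because the tables name libraries without the numbers that the labels give, so input and pull-down libraries that may share a mouse could not be matched. The rises of *Mt1* and *Mt2* at IM3h in both fractions and at IM24h in total *ME* RNA were called under every alternative run, and leaving out each library moved them between 4.83 and 5.30 and between 6.42 and 7.67 in RiboTag at IM3h. The number of members called changed as follows. For RiboTag IM3h against naïve it was 3, and 2 by library total, with the reference genes and in the joint fit, and 2 to 3 leaving out libraries. For total *ME* IM24h against naïve it was 4, and 3 with the reference genes and 3 to 4 leaving out libraries. For total *ME* IM24h against IM3h it was 4, and 2 without scaling, 2 with the reference genes, 3 with DESeq2 size factors or without rRNA genes, and 1 to 4 leaving out libraries; by library total it was 3, as *Mt2* and *Mtf1* were lost and *Slc39a14* was gained. For total *ME* IM72h against IM24h it was 3, and 2 without scaling. For total *ME* IM72h against naïve it was 4, and 3 with DESeq2 size factors, 3 in the joint fit and 3 to 4 leaving out libraries. With the reference genes that number was 2, as *Mt1*, *Slc30a1* and *Slc39a14* were lost and *Mtf1* was gained as lower. For RiboTag IM24h against IM3h it was 2, and 1 in the joint fit, which lost *Mt1*. For RiboTag IM24h against naïve it was 0, and 1 by DESeq2 and 0 to 1 leaving out libraries. For RiboTag IM72h it was 0 against IM24h, and 1 by DESeq2 (*Mt2*) and 2 in the joint fit (*Mt1* and *Mt2*); it was 0 against naïve, and 1 in the joint fit (*Mt2*). For the interaction at IM24h it was 0, and 1 by DESeq2, 1 by library total and 0 to 1 leaving out libraries (*Mt2* each time); at IM72h it was 1, and 3 by library total, 3 without scaling (*Mt1* and *Slc30a1* gained, where 7109 and 8920 of 16527 genes were called and the median of all genes was -3.06 and -3.88) and 0 to 2 leaving out libraries. In naïve mice 1 member did not overlap between fractions, 2 did not by library total, and 1 to 2 did not leaving out libraries. The cause of these changes was not tested. Directions turned in values that were not called. By library total, without scaling and with the reference genes in turn, *Slc30a1* became -0.64, -0.74 and -1.43 in RiboTag at IM24h, -0.80, -1.39 and -1.45 from IM3h to IM24h, and -0.17, -0.089 and -0.33 in total *ME* RNA at IM3h. In the same order, in RiboTag at IM72h *Slc39a14* became -1.47, -2.12 and -1.61 and *Mtf1* -1.36, -2.03 and -1.32, the IM24h interaction of *Slc39a14* -0.99, -0.90 and -0.72, and the IM72h interaction of *Mtf1* -1.61, -2.61 and -0.38. By library total and without scaling *Mtf1* became 0.22 and 0.074 at IM24h and 0.25 and 0.58 at IM72h in total *ME* RNA. From IM24h to IM72h in total *ME* RNA *Slc30a1* became 0.30 without scaling and *Mtf1* -0.12 with the reference genes. The IM3h interaction of *Mt1* became 0.11 without scaling. Between naïve fractions by library total *Slc30a1* became 0.33 and *Mtf1* 0.43, and the RiboTag IM72h ratio became 0.14 without an added count. Leaving out each library gave, in RiboTag at IM3h, *Slc30a1* -0.016 to 0.67 and *Mtf1* -0.66 to 0.13; at IM24h *Slc30a1* -0.11 to 0.93; at IM72h *Slc39a14* -0.34 to 0.80 and *Mtf1* -2.29 to 0.85; from IM3h to IM24h *Slc39a14* -0.60 to 0.10 and *Slc30a1* -0.38 to 0.71. In total *ME* RNA it gave *Slc30a1* -0.13 to 0.31 at IM3h, and from IM24h to IM72h *Slc30a1* -0.28 to 0.10 and *Mtf1* -0.021 to 0.14. Interactions ranged over -0.047 to 0.67 (*Slc30a1*) and -0.32 to 0.92 (*Mt2*) at IM3h and -2.56 to 0.81 (*Mtf1*) at IM72h, the log2 ratio difference over -0.15 to 0.51 at IM24h and -1.98 to 0.060 at IM72h in RiboTag, and naïve fraction differences over -0.72 to 0.39 (*Slc30a1*) and -0.59 to 0.12 (*Mtf1*). The standard errors of the RiboTag IM24h and IM72h differences (0.45 to 1.95) limit what these fits can call.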
